A study of Mus musculus with 4 samples.

Results

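The genes described here were 5 subunits of the transcription factor NF-κB (Nfkb1, Nfkb2, Rel, Rela and Relb), the inhibitors Nfkbia and Nfkbiz, and the feedback and target genes Tnfaip3, Birc3 and Tnfaip2. They were chosen by name, with earlier results of these data known, and all 10 were among the 19059 genes measured. RNA was counted in single CD45+ cells, that is hematopoietic cells, sorted live from MC38 colon adenocarcinomas grown under the skin of B-hCTLA-4 mice, a strain that carries humanized CTLA-4. There were 4 libraries, 1 per group, each made from 11 pooled mice on day 8, after 3 treatments that began at tumors of about 100 mm3. The isotype control group was given human IgG1 at 10 mg/kg, and the combination group was given ipilimumab against human CTLA-4 at 10 mg/kg, also a human IgG1, with AT130-2 against mouse FcγRII at 20 mg/kg, a mouse IgG1 whose N297A change weakens Fc receptor binding. The other two libraries came from mice given 1 of these antibodies alone, but the title and the treatment field of each name opposite antibodies, so they are called here the library titled αCTLA-4 and the library titled αFcγRII, and no direction below is tied to which antibody those mice had. The labels and the article also differ in the number of mice, the day and the doses, and the values given here are those of the labels. The ages of the mice were not given in the sources used here.

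NF-κB proteins are held in the cytoplasm by IκB inhibitors until receptors for cytokines, microbial products or antigen activate a kinase complex that has the inhibitor degraded. RelA, c-Rel and p50 carry the fast canonical response, whereas RelB and p52, the product of Nfkb2, carry the slower non-canonical response to receptors such as CD40. NF-κB then switches on several of its own genes and its own brakes, which makes transcripts of the brakes a common readout of recent activity in macrophages and dendritic cells.

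Levels are unique molecular identifiers (UMIs) of a gene summed over the cells of a class in a library, per 1000000 UMIs of that class (CPM), and 4 values in a row always follow the order isotype control, αCTLA-4-titled, αFcγRII-titled and combination. With 1 library per group there was no replicate error and no test. Intervals are exact 95% intervals that cover counting error only, and differences between mice, tumors or preparations cannot be told apart from differences between treatments. A gene was called higher or lower where 2 libraries differed by at least 1.5-fold, among genes with a mean of at least 10 CPM in the class. Counts came from hybridized probes, so levels are compared between libraries and classes and not between genes. A summed level does not tell more transcripts per cell from more cells that carry them.

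The files held 28290 cells with 129151823 to 196362818 UMIs per library, of which 26785 cells were kept. Classes were assigned from marker genes with the 10 NF-κB genes left out of the clustering, and held 16642 macrophages, 2619 monocytes, 1824 T cells, 1471 NK cells, 740 neutrophils and 644 dendritic cells. Clusters were led by genes such as Cd209a and Zbtb46 in dendritic cells, S100a8 and Cxcr2 in neutrophils and Ncr1 in NK cells, and the 12 macrophage clusters by genes of their states with at least 13 of the 14 macrophage markers detected, while Ly6c2 and Ear2 of the monocyte markers were not measured. Neutrophils numbered 121, 97, 48 and 474, so their values are the least precise, and 2233 cells that carried T cell markers together with macrophage ones were put in no class. No whole cell barcode was shared between libraries, but 8408 kept cells (31.39%) shared the gel bead part of their barcode with a cell of another library. Genes that tissue digestion also induces moved with the groups: Hspa1a and Hspa1b, stress-induced chaperones that led 2 macrophage clusters, were both lower in the combination than in the isotype control in all 6 classes.

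The genes lie on 8 mouse chromosomes, with Nfkb2 and Rela on chromosome 19 and 2 genes on chromosome 12, where Nfkbia occupies positions 55489410 to 55492647 on the minus strand and Tnfaip2 positions 111442469 to 111455018 on the plus strand (GRCm38, GENCODE). RefSeq promoters (GRCm38.p6, 250 bases before to 50 after the start) were at hand for 7 of the 10 genes, with none for Nfkb1, Relb and Nfkbiz. At least 1 promoter of 5 of the 7 genes held the NF-κB site as defined by its IUPAC consensus on either strand, compared with 8.46% of 32851 promoters and 9.55% of 27025 genes. A looser form (3 G, then 5 bases of any kind, then 2 C), which includes the consensus, was found on either strand in 7 of 7 genes. It was found in 53.5% of all genes and 50.8% of all promoters. For each of the 5 genes 1 stretch with a consensus match is shown, because they include the genes that differed most between libraries, with the match in capitals. Nfkb2 has further matches, 1 at -11 from the same start and 3 in its other promoters. Of those 3, the matches at 11 and at -225 are the same site, because these 2 promoters overlap. Tnfaip3 has 1 more at -125, and none of these matches are shown. The stretches of Nfkb2 and Tnfaip2 lie in a UTR of a longer annotated transcript and are limited to 30 bases, that of Tnfaip3 lies in an intron of a longer transcript, and those of Rel and Nfkbia lie upstream of all annotated transcripts.
Nfkb2, chr19:46304688-46304717, plus strand: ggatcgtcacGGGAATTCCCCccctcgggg
Rel, chr11:23770971-23771069, minus strand: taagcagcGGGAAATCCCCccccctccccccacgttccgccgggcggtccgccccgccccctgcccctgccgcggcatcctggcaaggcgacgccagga
Nfkbia, chr12:55492648-55492747, minus strand: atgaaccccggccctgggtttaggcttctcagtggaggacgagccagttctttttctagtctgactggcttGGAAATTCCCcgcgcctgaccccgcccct
Tnfaip2, chr12:111442627-111442656, plus strand: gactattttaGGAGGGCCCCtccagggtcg
Tnfaip3, chr10:19015411-19015510, minus strand: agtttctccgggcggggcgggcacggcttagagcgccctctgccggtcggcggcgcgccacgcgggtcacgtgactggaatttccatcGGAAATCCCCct
In Nfkb2 and in Rel the capitals cover 2 matches that overlap by all but 1 base. The first of them fits the consensus on both strands and the second on 1 strand. A match describes these letters only, and no binding was measured.

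The subunits were spread over all 6 classes, with dendritic cells at the top for 4 of the 5. Relb, the partner of p52, was highest in dendritic cells at 188, 174, 159 and 289 CPM, above every library of the 5 other classes, and lowest in macrophages at 46.4, 47.8, 43.2 and 62.4 CPM. Rel, which encodes c-Rel, ranged from 297 to 403 CPM in dendritic cells and from 73.3 to 86.4 CPM in macrophages. Nfkb2 followed the same order at its ends, with 387 to 650.2 CPM in dendritic cells and 123 to 199.9 CPM in macrophages, and its 4 middle classes overlapped. These orders include 100 dendritic cells of a cluster led by Ccr7, described below. In the other dendritic cluster Relb was at 70.2, 89.7, 90.8 and 126 CPM, which overlapped NK cells (79.2 to 97.9 CPM). Rel there (195 to 262 CPM) overlapped monocytes, and Nfkb2 there (262 to 475 CPM) overlapped the 4 middle classes. Nfkb1, which encodes p105 and p50, was also highest in dendritic cells, but its range of 483 to 634 CPM overlapped that of monocytes (405 to 486 CPM). Rela, the main activating subunit, varied least between classes. Its median over libraries was 1.57-fold higher in neutrophils than in macrophages, and all neighbours in its order overlapped except macrophages, the lowest class at 117 to 128 CPM.

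The inhibitors and targets had another order, led by neutrophils. Nfkbia encodes IκBα, the inhibitor that NF-κB re-induces within minutes to hours of activation, and stood at 1323, 2681, 1329 and 3226 CPM in neutrophils. That range lay above every library of the next class, monocytes, at 551 to 914 CPM, and macrophages were lowest at 257 to 488 CPM. Nfkbiz encodes the nuclear protein IκBζ, which restrains or enables NF-κB at a subset of genes, and was highest in neutrophils (439 to 556 CPM) and next in monocytes (177 to 228 CPM). Tnfaip2, a target induced by TNF, had the widest spread, with a median 36.5-fold higher in neutrophils than in T cells. Birc3, which encodes the ubiquitin ligase cIAP2, was highest in neutrophils (227 to 446 CPM), overlapping monocytes (233 to 280 CPM). Tnfaip3 encodes A20, an enzyme that edits ubiquitin chains and shuts off the pathway, and was the single member highest in T cells, at 403, 439.5, 312 and 390.3 CPM, although neutrophils and NK cells overlapped that range.

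**Figure D1:**
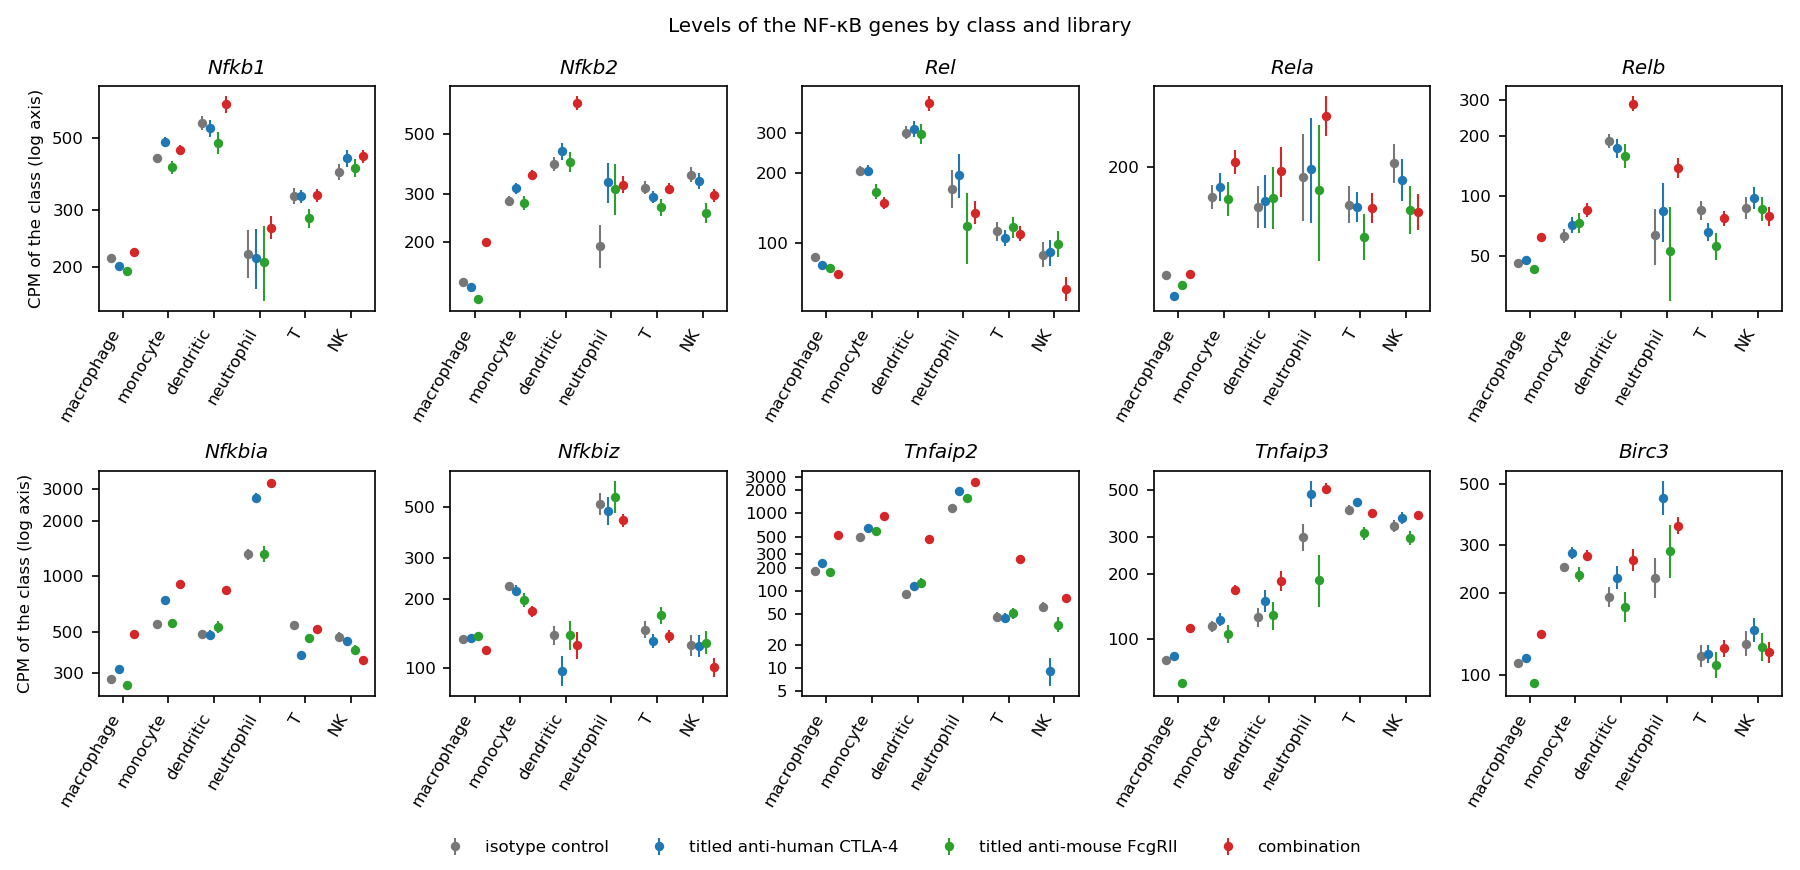
Level of each of the 10 genes (CPM, log axis) in the 6 cell classes, with 1 point per library and bars for 95% counting intervals. Relb, Rel and Nfkb2 peak in dendritic cells, Nfkbia, Nfkbiz and Tnfaip2 in neutrophils, and the combination library is above the other 3 for Tnfaip2 in every class.

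The main question of the design was whether the combination differed from the isotype control and from either antibody alone. Between combination and isotype control, 2 of the 10 genes were higher by at least 1.5-fold in macrophages, where 3.38% of all genes tested were, and 2 in monocytes, where 5.05% were. The counts were 4 in dendritic cells against 5.3%, 6 in neutrophils against 9.42% and 1 in T cells against 3.61%. None passed in either direction in NK cells, where 9.67% of genes did, and no gene of the 10 was lower past the limit in any class. The count in macrophages was 4 when the libraries were scaled by TMM or by medians of ratios, with Nfkb2 and Tnfaip3 then just past the limit. These scalings also took Tnfaip3 past the limit in monocytes and dendritic cells, and Rela in neutrophils, so those counts rose too. All 10 genes passed the level minimum in every class. The median log2 ratio over the 10 genes was 0.39 in macrophages, 0.26 in monocytes, 0.51 in dendritic cells and 0.69 in neutrophils, compared with medians over all genes tested of -0.11, -0.08, -0.11 and -0.25. In T cells it was -0.03 (all genes -0.06) and in NK cells -0.20 (all genes -0.02). Other scalings of the libraries turned the direction of Nfkbiz in neutrophils and of Nfkb1, Nfkb2, Rel, Rela, Tnfaip3 and Birc3 in T cells, and of no other gene and class. The T cell ratios among these lay between 0.969 and 1.07 by CPM, whereas Nfkbiz in neutrophils was at 0.852 (0.751 to 0.970) by CPM, 0.71 by the mean over cells, 0.993 by medians of ratios and 1.06 by TMM.

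**Figure D2:**
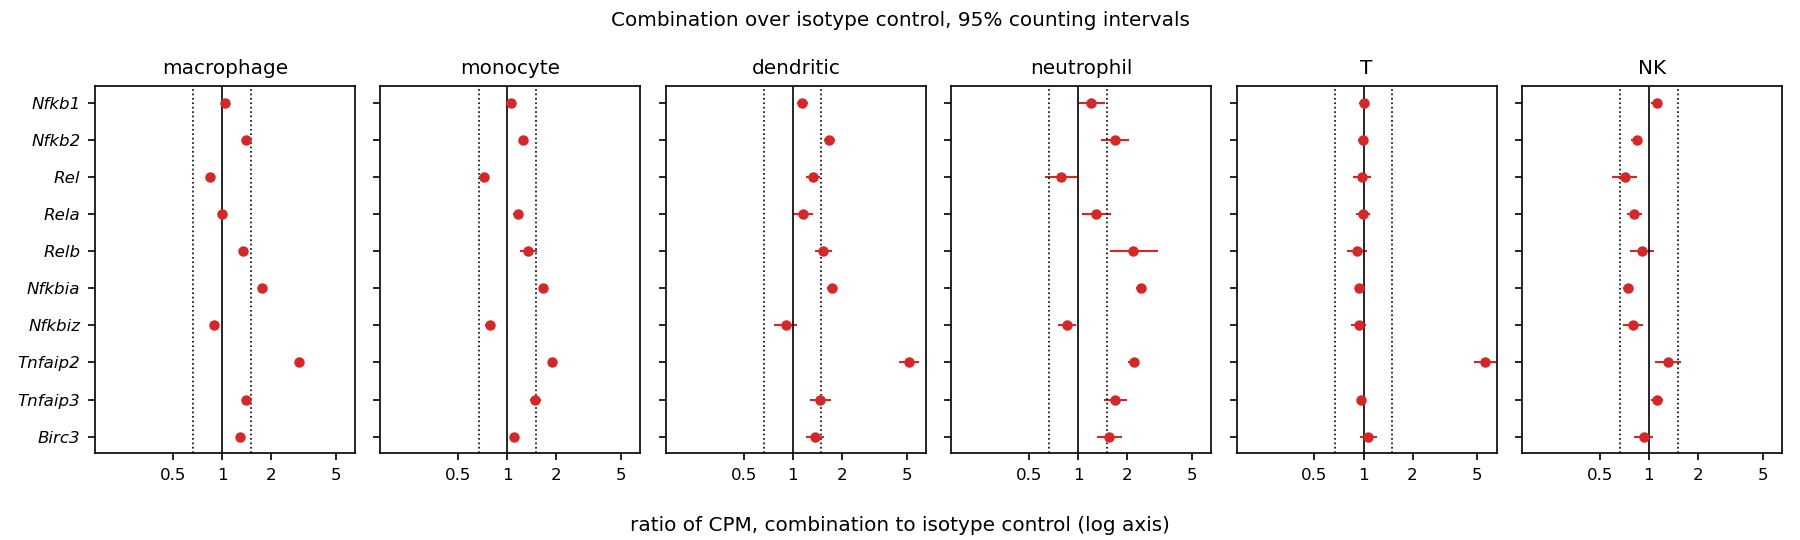
Ratio of CPM in the combination to that in the isotype control (log axis) for the 10 genes in each of the 6 classes, with bars for 95% counting intervals and dotted lines at 1.5-fold higher and lower. Tnfaip2 and Nfkbia lie above 1.5 in all 4 myeloid classes, whereas Rel and Nfkbiz lie below 1 in macrophages, monocytes and neutrophils, Nfkbiz in neutrophils being above 1 when scaled by TMM.

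Of the canonical subunits, Rela and Nfkb1 differed little in macrophages. Rela in macrophages was at 127, 117, 122 and 128 CPM, and its ratio of combination to isotype control was 1.01 (0.981 to 1.03). The same ratio for Nfkb1 was 1.05 (1.03 to 1.07) in macrophages, 1.06 (1.01 to 1.11) in monocytes and 1.00 (0.934 to 1.08) in T cells. Ratios in neutrophils were larger, and the combination was the highest library there for Rela and Nfkb1. Rela in neutrophils was at 1.288 (1.056 to 1.581) by CPM, 1.501 by medians of ratios and 1.603 by TMM. Nfkb1 in neutrophils was at 1.204 (0.999 to 1.461) by CPM, 1.404 by medians of ratios and 1.499 by TMM. Rel was on the low side in macrophages and monocytes, and the combination was the lowest of the 4 libraries in both. In monocytes Rel was at 206, 205, 167 and 148 CPM, a ratio of 0.72 (0.668 to 0.776), and in macrophages the ratio was 0.849 (0.823 to 0.875). By medians of ratios and by TMM the macrophage ratio of Rel was 0.913 and 0.921. In neutrophils the ratio of Rel was 0.7865 (0.629 to 0.989) by CPM, 0.9165 by medians of ratios and 0.979 by TMM. In dendritic cells Rel was instead at 301, 312, 297 and 403 CPM, a ratio of 1.34 (1.21 to 1.48), and the difference between the classes was not tested.

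The subunits of the non-canonical arm had their largest ratios in dendritic cells and neutrophils. In dendritic cells Nfkb2 was at 387, 431, 395 and 650.2 CPM, a ratio to the isotype control of 1.68 (1.55 to 1.82). Relb in the same cells had a ratio of 1.54 (1.36 to 1.73). The 3 other libraries lay close together for both genes and the combination lay above each of them by at least 1.5-fold. In neutrophils Relb was at 63.6, 84.1, 53.5 and 139 CPM, a ratio of 2.18 (1.56 to 3.11), and the combination was again at least 1.5-fold above each other library. Nfkb2 in neutrophils was at 194, 332, 314 and 325 CPM, so there the isotype control was low and the 3 antibody libraries overlapped. Macrophages had ratios below the limit, 1.41 (1.38 to 1.44) for Nfkb2 and 1.34 (1.29 to 1.40) for Relb, with the combination highest in both.

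Of the inhibitors, Nfkbia was higher in the combination in all 4 myeloid classes and Nfkbiz in none. Nfkbia in macrophages was at 276, 312, 257 and 488 CPM, a ratio to the isotype control of 1.77 (1.74 to 1.79). In monocytes it was at 551, 743, 560.2 and 914 CPM and in dendritic cells at 486, 481, 534 and 847 CPM, ratios of 1.66 (1.6 to 1.72) and 1.74 (1.62 to 1.87). The combination was the highest library in each of these classes, whereas the library titled αCTLA-4 lay between the others in macrophages and monocytes and level with the isotype control in dendritic cells. Neutrophils had the largest ratio, 2.44 (2.27 to 2.62), and split in pairs, with the combination and the library titled αCTLA-4 high and the other two low. Nfkbiz in monocytes was at 228, 217, 198 and 177 CPM, a ratio of 0.777 (0.725 to 0.832), and in macrophages its ratio was 0.891 (0.870 to 0.913). By medians of ratios and by TMM the ratios were 0.818 and 0.806 in monocytes and 0.958 and 0.966 in macrophages. By CPM the combination was the lowest library for Nfkbiz in macrophages, monocytes and neutrophils, although TMM turned the neutrophil ratio to the isotype control above 1.

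The feedback genes Tnfaip3 and Birc3 moved by less. Tnfaip3 in macrophages was at 79.2, 83.2, 61.6 and 112 CPM, a ratio of combination to isotype control of 1.41 (1.37 to 1.45), and in monocytes the ratio was 1.49 (1.37 to 1.61). In dendritic cells it was 1.48. By CPM Tnfaip3 passed the limit only in neutrophils, at 299, 479, 189 and 505 CPM with a ratio of 1.69 (1.45 to 1.98). By medians of ratios and by TMM it also passed in macrophages (1.517 and 1.53), monocytes (1.564 and 1.541) and dendritic cells (1.592 and 1.575). By the mean over cells the ratio was 1.475 in neutrophils and 1.512 in monocytes. Birc3 passed only in neutrophils, at 227, 446, 285 and 353 CPM with a ratio of 1.55 (1.30 to 1.87). In neutrophils where macrophage markers took under 1% of UMIs the Birc3 ratio was 1.43 (1.16 to 1.78), below the limit. For both genes in neutrophils the library titled αCTLA-4 was close to the combination or above it, so the difference was not one between the combination and every other library.

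Tnfaip2 had the largest ratio of the 10 genes in 5 of the 6 classes and followed Nfkbia in neutrophils. In macrophages it was at 179, 229, 176 and 530.0 CPM, a ratio to the isotype control of 2.95 (2.90 to 3.00). In dendritic cells it was at 90.4, 115, 126 and 468 CPM, a ratio of 5.17 (4.51 to 5.96). The 3 other libraries were within a narrow band in both classes and the combination lay far above it. Monocytes had 497, 651, 592 and 940.4 CPM and a ratio of 1.89 (1.82 to 1.96), and neutrophils had 1169, 1971, 1575 and 2566 CPM and a ratio of 2.19 (2.03 to 2.37). In these classes both single-antibody libraries lay between the isotype control and the combination.

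The combination was at least 1.5-fold above each of the 3 other libraries for Nfkbia and Tnfaip2 in macrophages, where 1.94% of all genes met this rule. In dendritic cells 4 genes met it, Nfkb2, Relb, Nfkbia and Tnfaip2, against 2.46% of all genes. In neutrophils Relb met it (1.18% of all genes) and in T cells Tnfaip2 (1.64%), while no gene of the 10 did in monocytes (2.07%) or NK cells (0.865%). By rank alone, the combination was the highest library for 8 of the 10 genes in macrophages against 20.8% of all genes, 9 in dendritic cells against 24%, 6 in monocytes against 24.1%, 6 in neutrophils against 14.9%, 3 in T cells against 17.8% and 3 in NK cells against 22.6%. It was the lowest for Rel and Nfkbiz in macrophages and monocytes, where 53.6% and 40.9% of all genes were lowest in it, for Nfkbiz in neutrophils (26.8%), and for none in dendritic cells (39.9%) or T cells (34.6%).

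Macrophages were a mixture of 12 clusters, and the differences were looked for inside each. Tnfaip2 was higher in the combination than in the isotype control by at least 1.5-fold in 12 of 12 clusters, with ratios from 1.64 to 3.65, and Nfkbia in 10 of 12, with ratios from 0.948 to 1.96. Tnfaip3 was higher in 12 of 12, past the limit in 6. Rel was higher in 1 cluster and Nfkbiz in 3. The largest Tnfaip2 ratio, 3.65, and the largest Nfkbia ratio, 1.96, were both in a cluster led by the stress genes Hspa1a and Hspb1. A cluster led by Mmp12 and Nos2, the matrix metalloproteinase of macrophages and the inducible nitric oxide synthase, had the highest level of both genes over all libraries, at 907 CPM for Tnfaip2 and 627 CPM for Nfkbia. Its share of macrophages was 3.57%, 5.52%, 3.94% and 10.1%. Inside that cluster Tnfaip2 was at 643 CPM in the isotype control and 1158 CPM in the combination, a ratio of 1.80 (1.72 to 1.89), while Nfkb2 was at 226 CPM in both. The 10 neutrophil markers together stood at 211, 242, 205 and 545 CPM in macrophages, and their part in these ratios was not tested.

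**Figure D3:**
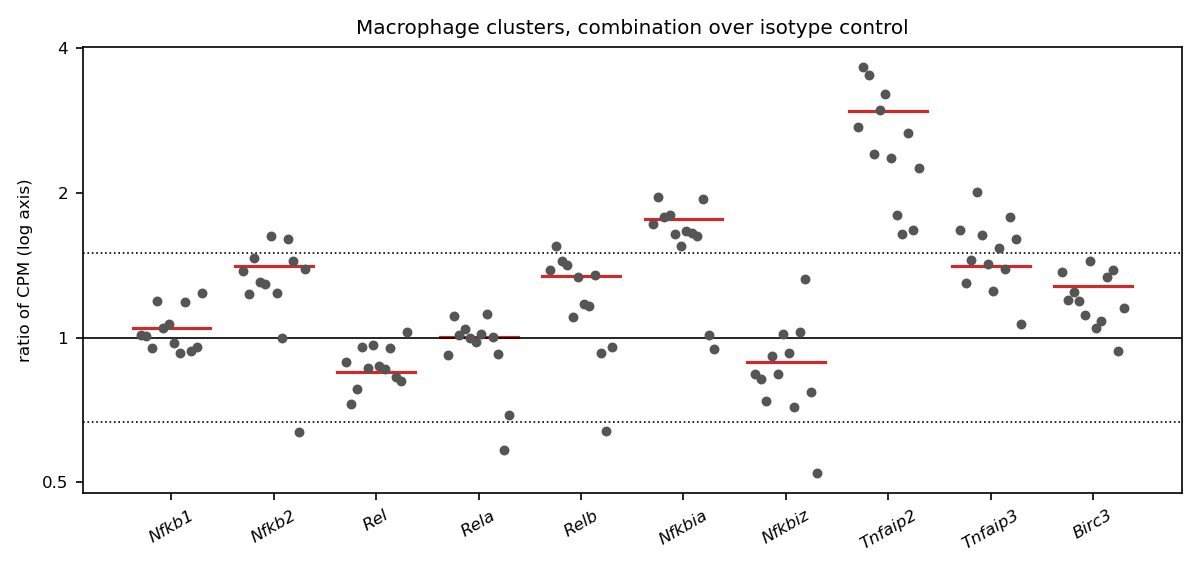
Ratio of CPM in the combination to that in the isotype control (log axis) for each of the 10 genes, with 1 point for each of the 12 macrophage clusters, a red line for all macrophages and dotted lines at 1.5-fold. All 12 points of Tnfaip2 lie above 1.5 and 10 of the 12 points of Nfkbia do, whereas those of Rel and Nfkbiz lie mostly below 1.

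Monocytes comprised 2 clusters whose balance differed between libraries. A cluster led by Ace and Adgre4, genes of the patrolling type, held 56.45% of monocytes in the isotype control, and one led by Plac8 and Chil3, genes of the inflammatory type, held 64.76% in the combination. Tnfaip2 and Nfkbia were both higher in the Plac8-led cluster over all libraries, at 845 against 441 CPM and 824 against 529.8 CPM. Within the Plac8-led cluster the ratios of combination to isotype control were 1.78 (1.70 to 1.87) for Tnfaip2 and 1.63 (1.56 to 1.71) for Nfkbia. Within the Ace-led cluster they were 1.44 (1.34 to 1.54) and 1.32 (1.24 to 1.41), in the same direction and below the limit. Rel was lower in both, with ratios of 0.741 (0.664 to 0.828) and 0.843 (0.758 to 0.935). Nfkbiz was higher over all libraries in the Ace-led cluster, at 268 against 159 CPM, and that cluster held 35.24% of monocytes in the combination. Ratios of Nfkbiz within the clusters are not given here. The 14 macrophage markers together took 0.664%, 0.550%, 0.826% and 0.929% of monocyte UMIs, and the 10 neutrophil markers stood at 629.5, 708.5, 607 and 1230.5 CPM together. Both lists were highest in the combination, and their part in these ratios was not tested.

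Dendritic cells comprised a cluster of 100 cells led by Ccr7, Ccl22 and Fscn1, the genes of mature migratory dendritic cells, and a larger one of 544 cells led by Cd209a and Kmo. The Ccr7-led cluster had the higher level of 8 of the 10 genes in 4 of 4 libraries. The share of all genes higher in it in every library was not counted, so 8 of 10 is a description only. With few cells, it held more UMIs than the other cluster for Relb alone (1008 against 625). Over all libraries Relb was at 914 CPM in it and at 90.0 CPM in the other cluster, a ratio of 10.2 that ranged from 6.56 to 14.2 over the 4 libraries. Rel (993 against 220.2 CPM) and Nfkb2 (1267 against 330.5 CPM) were also higher in it in 4 of 4 libraries, as were Nfkbia, Nfkb1, Rela, Tnfaip3 and Birc3. Nfkbiz was at 134 and 125 CPM, and Tnfaip2 was higher in the Ccr7-led cluster in 2 of 4 libraries.

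That cluster made up 14.4%, 10.5%, 11.7% and 26.5% of dendritic cells, from 37, 16, 12 and 35 cells. Inside it, the ratios of combination to isotype control were 0.828 (0.715 to 0.960) for Relb, 0.983 (0.867 to 1.12) for Nfkb2 and 1.07 (0.948 to 1.22) for Nfkbia, whereas in the Cd209a-led cluster they were 1.80, 1.81 and 1.86. Nfkb1 was instead higher inside the Ccr7-led cluster, at 770 CPM in the isotype control and 1109 CPM in the combination, a ratio of 1.44 (1.24 to 1.67) compared with 0.937 (0.854 to 1.03) in the other. Tnfaip2 was higher in both, 3.79-fold (2.84 to 5.13) in the Ccr7-led cluster and 5.34-fold (4.56 to 6.27) in the other. The setting that held cluster makeup fixed used only clusters with at least 20 cells in every library. In dendritic cells it therefore left out the Ccr7-led cluster and used the Cd209a-led one alone. The number of genes at least 1.5-fold above the library titled αCTLA-4 then went from 4 to 2, and that against the isotype control from 4 to 5. The share of the Ccr7-led cluster and the levels of Relb, Nfkb2 and Nfkbia outside it were thus both higher in the combination library. The 14 macrophage markers together took 0.656%, 0.421%, 0.639% and 0.612% of dendritic UMIs, but moved apart. Nos2 was at 11.4, 5.86, 4.46 and 179.7 CPM and Arg1, which encodes arginase 1, at 336, 56.4, 431 and 957 CPM, whereas Apoe, which encodes apolipoprotein E, had a ratio of 0.499 (0.477 to 0.522). The 10 neutrophil markers stood at 171, 102, 94.4 and 325 CPM together, with 1, 2, 4 and 1 of them at 0. Nos2, Arg1 and the neutrophil markers were all highest in the combination, and their part in the dendritic ratios was not tested.

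**Figure D4:**
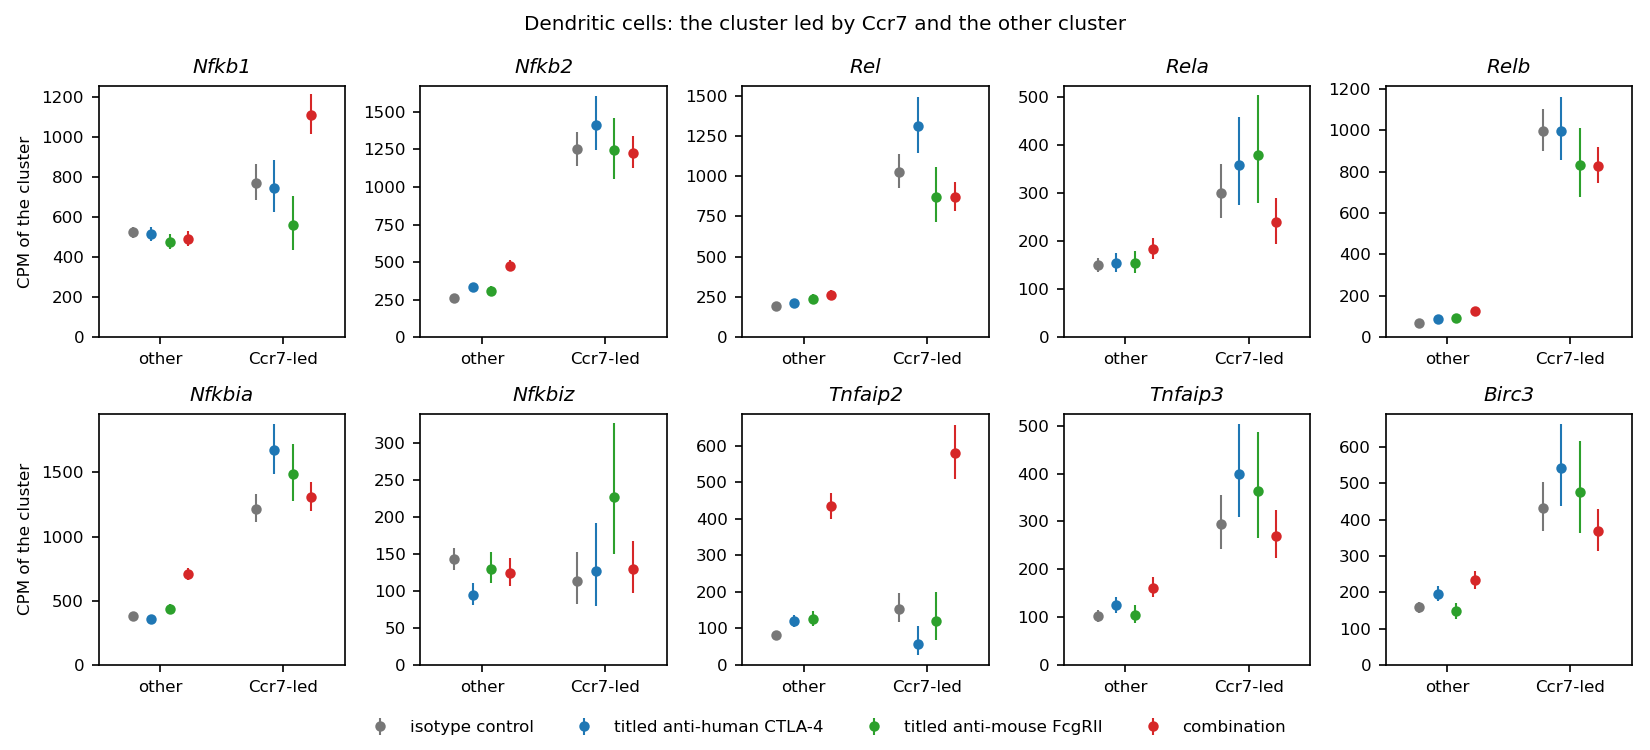
Level (CPM) of the 10 genes in the 2 dendritic clusters, with 1 point per library and bars for 95% counting intervals. Relb, Rel and Nfkb2 are higher in the Ccr7-led cluster in all 4 libraries, and in the other cluster the combination lies above the other libraries for Relb, Nfkb2, Nfkbia and Tnfaip2.

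T and NK cells had 1 call among the 10 genes, Tnfaip2 in T cells. Nfkbia in T cells was at 547, 372, 462 and 517 CPM and in NK cells at 471, 444, 399 and 350.4 CPM, with ratios of combination to isotype control of 0.945 (0.894 to 0.999) and 0.744 (0.691 to 0.802). In NK cells the combination was the lowest library for 6 of the 10 genes, against 23.3% of all genes. Rel in NK cells was at 88.6, 90.6, 98.7 and 63.0 CPM, a ratio of 0.711 (0.596 to 0.847). NK cells comprised 2 clusters, and the one led by the granzyme genes Gzmc and Gzmd held 29.9%, 28.6%, 36.6% and 44.6% of them. Over all libraries this cluster had lower levels than the Gzma-led one of Nfkbia (384 against 444 CPM) and Nfkbiz (76.0 against 177 CPM), and higher levels of Nfkb2 (366 against 233 CPM). Inside the Gzmc-led cluster the ratios of combination to isotype control were 0.581 (0.526 to 0.643) for Nfkbia and 0.553 (0.433 to 0.707) for Rel, both past the limit. Inside the Gzma-led cluster they were 1.08 (0.962 to 1.2) and 1.02 (0.792 to 1.33), and the ratio of Tnfaip2 was 2.53 (1.96 to 3.30) there and 0.668 (0.504 to 0.889) in the Gzmc-led cluster. The values over all NK cells thus join clusters that differed, and the difference between the clusters was not tested. In T cells Tnfaip2 was at 46.1, 45.1, 51.1 and 256 CPM, a ratio of 5.55 (4.75 to 6.52).

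Macrophage RNA was measured beside these values, because macrophages were the most abundant class and Tnfaip2 was highest in myeloid classes. All 14 macrophage markers were detected in T cells and in NK cells of every library, and took 1.10%, 0.688%, 1.69% and 1.31% of the UMIs of T cells and 0.717%, 0.213%, 0.880% and 0.336% of those of NK cells. In neutrophils they took 0.878%, 0.472%, 1.39% and 0.579%. In cells with under 1% of their UMIs on these markers, Tnfaip2 in T cells was at 36.4, 28.0, 47.9 and 137 CPM, and the ratio was 3.75 (2.91 to 4.91). The combination was thus still the highest library in T cells, at a smaller ratio. Nfkbia in the same T cells was at 703, 391, 618 and 508 CPM, a ratio of 0.723 (0.671 to 0.779) in place of 0.945. In NK cells with under 1% Nfkbia was at 537, 464, 494 and 321 CPM, a ratio of 0.598 (0.550 to 0.651) that passed the limit as lower. Tnfaip2 in these NK cells was at 57.4, 2.51, 7.71 and 51.2 CPM, a ratio of 0.892 (0.701 to 1.14), in place of 1.30 (1.08 to 1.57) over all NK cells. The 10 neutrophil markers stood at 170.0, 73.6, 75.4 and 380.1 CPM together in T cells and at 255, 14.2, 54.8 and 121 CPM in NK cells, with 3 of them at 0 in T cells of the library titled αFcγRII and in NK cells of both single-antibody libraries. Their part in the T and NK values was not tested. In neutrophils with under 1%, Nfkbia was at 1696, 3097, 2216 and 3702 CPM and Tnfaip2 at 1693, 2228, 2608 and 2914 CPM, ratios of 2.18 (2.01 to 2.37) and 1.72 (1.58 to 1.87).

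**Figure D5:**
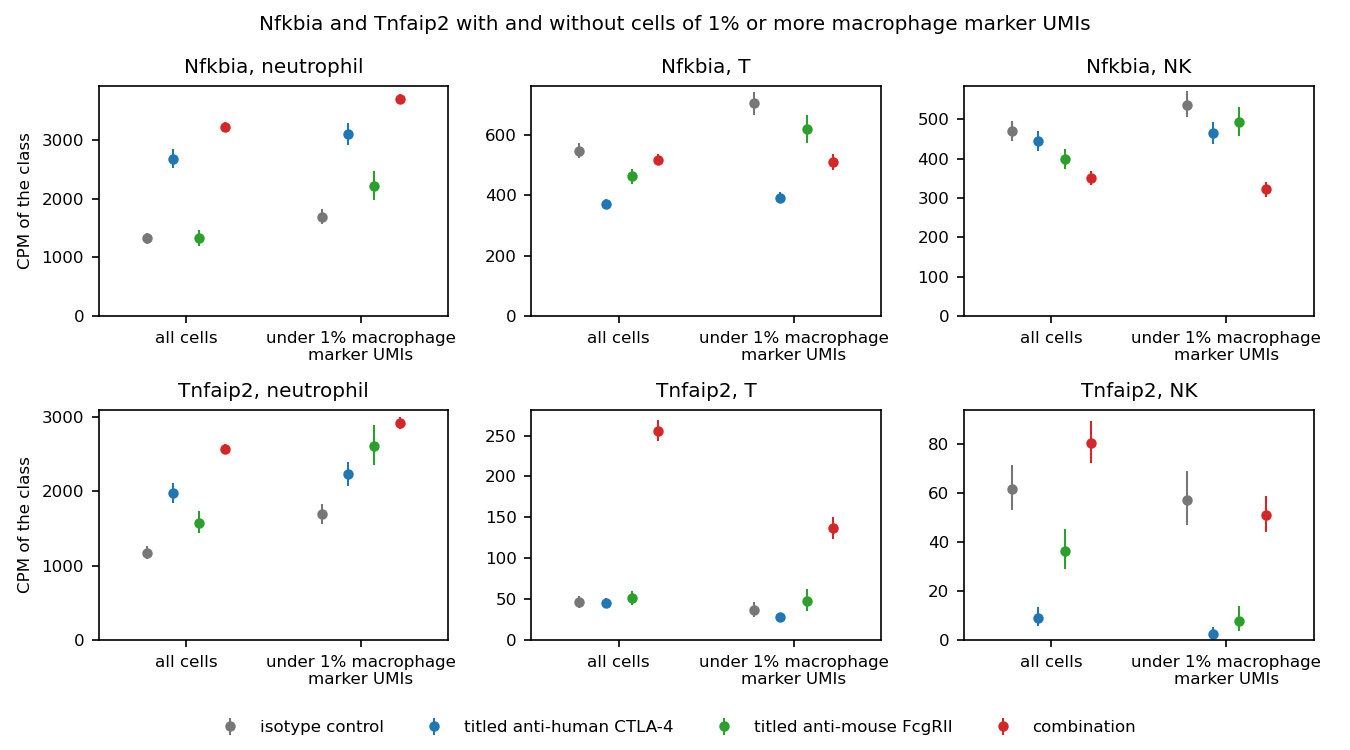
Level (CPM) of Nfkbia and Tnfaip2 in T cells, NK cells and neutrophils, over all cells and over cells where 14 macrophage markers took under 1% of UMIs, with 1 point per library and bars for 95% counting intervals. In T cells the combination stays highest for Tnfaip2 at 137 CPM, whereas in NK cells it is at 51.2 CPM and the isotype control at 57.4 CPM.

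Each single-antibody library was also set against the isotype control. For the library titled αCTLA-4 no gene of the 10 passed the limit in macrophages, monocytes, dendritic cells or T cells, where 1.28%, 2.32%, 7.2% and 10.2% of all genes did in either direction. In neutrophils 5 passed, all higher, against 7.91% of all genes. These were Nfkb2 at 1.71-fold (1.33 to 2.20), Nfkbia at 2.03-fold (1.85 to 2.22), Tnfaip2 at 1.69-fold (1.53 to 1.86), Tnfaip3 at 1.6-fold (1.31 to 1.96) and Birc3 at 1.96-fold (1.57 to 2.45). With under 1% of UMIs on macrophage markers, Tnfaip2 in neutrophils was at 2228 CPM against 1693 CPM in the isotype control, below the limit. In NK cells Tnfaip2 was lower, at 9.18 CPM against 61.9 CPM, a ratio of 0.148 (0.0926 to 0.228), with 8.85% of all genes lower past the limit. In the library titled αFcγRII none passed in macrophages (2.01% of all genes), monocytes (2.23%) or dendritic cells (7.79%). In neutrophils Nfkb2 was higher, at 1.62-fold (1.21 to 2.14) against 12.2% of all genes, and Tnfaip3 lower, at a ratio of 0.632 (0.457 to 0.861) against 19.7%. In neutrophils with under 1% of UMIs on macrophage markers Tnfaip3 was at 311 CPM in this library and 323 CPM in the isotype control. The lower call was thus not seen in those cells, whereas Nfkb2 was still higher, at 473 against 177 CPM. In the same cells Tnfaip2 was past the limit, at 2608 against 1693 CPM, and Rel was lower past it, at 122 against 206 CPM. Neither passed over all neutrophils. Relb was lower in T cells, with a ratio of 0.659 (0.543 to 0.796) against 2.45% of all genes, and Tnfaip2 in NK cells, with 0.590 (0.450 to 0.770) against 2.74%. The 2 libraries share the isotype control with the combination, so these ratios are not independent of those above.

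Against the library titled αCTLA-4, the combination was higher for 2 genes in macrophages (2.65% of all genes), Nfkbia at 1.56-fold (1.54 to 1.58) and Tnfaip2 at 2.31-fold (2.28 to 2.35). None passed in monocytes, where 6.15% of all genes did in either direction. In dendritic cells 4 passed (6.83%), with Relb at 1.67-fold (1.45 to 1.92) and Tnfaip2 at 4.09-fold (3.51 to 4.77). In neutrophils 1 passed, Relb (16.2%), in T cells Tnfaip2 (8.03%) and in NK cells Tnfaip2 (7.02%), the last at 8.79-fold (5.81 to 13.9) over 24 UMIs in the αCTLA-4-titled library. Against the library titled αFcγRII, 5 genes were higher in macrophages (4.85%), Nfkb2 at 1.62-fold, Nfkbia at 1.90-fold, Tnfaip2 at 3.02-fold, Tnfaip3 at 1.81-fold and Birc3 at 1.52-fold. The counts were 3 in monocytes (3.91%), 4 in dendritic cells (7.48%), 4 in neutrophils (15.7%) and 1 in T cells (4.19%). In NK cells Tnfaip2 was higher, at 2.21-fold (1.73 to 2.84) against 3.5%, and Rel lower, at 0.638 (0.532 to 0.764) against 6.11%.

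Other genes of the pathway were counted from lists for the same contrast of combination to isotype control. Of the target genes, which encode cytokines, chemokines and enzymes that NF-κB induces, 11 of 22 tested were higher and 1 lower in macrophages, 15 of 21 higher and 0 lower in monocytes, and 18 of 22 higher and 0 lower in dendritic cells. Their median log2 ratio was 0.68, 0.73 and 0.91 in these classes. The leading target genes in dendritic cells were Nos2 at 15.8-fold (11.1 to 23.2), Ccl4 at 10.9-fold (8.69 to 13.9), Cxcl2 at 9.61-fold (6.58 to 14.4) and Ccl3 at 5.35-fold (4.12 to 7.01). Nos2 is also on the list of macrophage markers. The dendritic counts are over both clusters, whose balance differed between libraries. The part of that balance and of other myeloid RNA in these counts was not tested. In neutrophils 14 of 23 were higher and 1 lower, in T cells 11 of 23 higher and 0 lower, and in NK cells 3 of 21 higher and 8 lower. Of all genes in NK cells, 3.4% were higher and 6.26% lower. The leading target genes in T cells were Nos2 at 9.06-fold (7.69 to 10.7), Cxcl2, which encodes a chemokine that attracts neutrophils, at 5.71-fold (4.59 to 7.2), Ptgs2 at 3.44-fold (2.58 to 4.66) and Il1b at 2.63-fold (2.36 to 2.93), genes of myeloid cells in the main. Among the macrophage markers in T cells Arg1 was at 402, 223, 454 and 1599 CPM, a ratio of 3.98 (3.77 to 4.20), and the neutrophil markers were also highest in the combination there, as given above. The part of myeloid RNA in the T cell count was not tested. Nos2 was the gene with the largest ratio in macrophages, at 107, 249, 74.8 and 924 CPM and 8.60-fold (8.43 to 8.78), and Il1a, which encodes interleukin 1 alpha, was the largest in monocytes, at 15.3, 36.7, 36.9 and 200.8 CPM and 13.2-fold (11.1 to 15.7). Il1a was higher in neutrophils, at 194, 715, 210.2 and 845 CPM, and the part of neutrophil RNA in the monocyte ratio was not tested. In neutrophils Icam1, an adhesion molecule, led at 167, 810.4, 324 and 888 CPM, where the library titled αCTLA-4 was again close to the combination.

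Among the other inhibitors and feedback genes, 6 of 13 were higher in dendritic cells and 7 of 13 in neutrophils with 1 lower, compared with 1 of 13 in macrophages, 2 of 13 in monocytes and 0 in T and NK cells. Nfkbie, which encodes IκBε, was at 47.9, 56.2, 46.2 and 88.0 CPM in macrophages, a ratio of 1.84 (1.77 to 1.90). Tnip1, which encodes a partner of A20, had ratios of 1.81 (1.56 to 2.11) in dendritic cells and 1.85 (1.51 to 2.29) in neutrophils. Of the kinases and adaptors 1 of 20 was higher in macrophages, Traf1 at 1.95-fold (1.87 to 2.04), and 3 of 21 were in dendritic cells, led by Malt1 at 208, 308, 283 and 529.8 CPM. Of the receptors that feed NF-κB, Tnfrsf9, which encodes the costimulatory receptor 4-1BB, was at 59.8, 58.9, 39.0 and 183 CPM in macrophages and had ratios of 3.07 (2.98 to 3.16) there and 4.49 (3.76 to 5.38) in dendritic cells. Cd40, which feeds the non-canonical arm, had a ratio of 2.10 (1.89 to 2.33) in dendritic cells. The dendritic values of these lists are over both clusters, and the part of the Ccr7-led cluster in them was not tested. Other receptors were lower past the limit. Tnfrsf18 had ratios of 0.574 (0.533 to 0.619) in macrophages and 0.603 (0.562 to 0.647) in T cells. Tnfrsf4 had ratios of 0.478 (0.434 to 0.525) in T cells and 0.230 (0.116 to 0.449) in neutrophils, and Ltbr 0.631 (0.482 to 0.825) in NK cells. In macrophages Tnfrsf18 was at 18.2, 6.69, 5.00 and 10.5 CPM and the 12 T cell markers together at 191, 81.1, 42.3 and 164 CPM. In neutrophils Tnfrsf4 was at 35.0, 2.34, 0 and 8.05 CPM and those markers at 207, 7.01, 7.13 and 203.5 CPM. The part of T cell RNA in these 2 myeloid ratios was not tested. In T cells Cd40, at 36.8, 27.9, 37.5 and 62.2 CPM, and Tlr2, at 112, 60.4, 146 and 186 CPM, were higher. Arg1 and the neutrophil markers were also highest in the combination in T cells, as given above. The part of myeloid RNA in the Cd40 and Tlr2 ratios was not tested.

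Early-response genes that tissue digestion also induces went the other way. None of 14 was higher in any class, and 2 were lower in macrophages, 7 in monocytes, 5 in dendritic cells, 7 in neutrophils, 2 in T cells and 7 in NK cells. Of all genes tested, 2.84%, 4.32%, 10.1%, 27.3%, 3.75% and 6.26% were lower in these classes in the same order. Together they stood at 5265 CPM in the isotype control and 4065 CPM in the combination in macrophages, and at 14721 and 9494 CPM in monocytes. Most of the macrophage difference lay in the 2 lower genes, Hspa1a at 509.5 and 94.6 CPM and Hspa1b at 614 and 115 CPM. Fosb came next there, with a ratio of 0.701 (0.685 to 0.717) that did not pass the limit. The part of the early-response genes in the lower levels of Rel and Nfkbiz in the combination was not tested. Of 6 housekeeping genes measured, 1 was higher in monocytes, 2 were lower in neutrophils and none passed in the 4 other classes.

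Genes whose levels followed a member most closely over the 6 classes and 4 libraries were ranked by Pearson's r of log2(CPM + 1) among 8958 genes. The 24 points share libraries and classes, so r is a description. Tnfaip2 was followed most closely by Fpr2, a formyl peptide receptor of myeloid cells (r = 0.98), and Nfkbiz by Dusp1, an early-response phosphatase (r = 0.96). Nfkb2 was followed by Nfkbib, which encodes IκBβ (r = 0.92), Rel by Tmem131l (r = 0.95) with Map3k14, the kinase of the non-canonical arm, next (r = 0.94), and Birc3 by the kinase gene Pim1 (r = 0.97). Nfkbia was followed by Herc6 (r = 0.95), Relb by Hivep1 (r = 0.89), Rela by Vasp (r = 0.89), Nfkb1 by Ccnd3 (r = 0.92) and Tnfaip3 by H2-Q4 (r = 0.94).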

How the data were processed

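Gene counts per cell (UMIs from the fixed-cell, probe-based 10x assay after enzymatic digestion of tumors at 37 °C) were deposited by the authors as filtered matrices. The matrix headers name Cell Ranger 7.2.0 and the submitters' processing notes name 7.0.0 and build mm10. The 4 libraries carry the same batch label, and samples were grouped by their titles. Cells with at least 500 genes and at most 10% mitochondrial UMIs were kept. Scrublet called 7 doublets in all and was taken not to have worked, so the 5% of cells with the highest score per library (1409 cells) were removed. Seurat 5.3.0 with sctransform 0.4.2 (R 4.3.3) normalized each library and integrated them on 2992 features (3000 less the 8 members among them), with 30 principal components and resolution 0.8, which gave 26 clusters. Clusters were named from marker lists, and one with T cell markers and a median C1qa, C1qb and C1qc detection of at least 80% of cells was set apart. Counts were then summed per class and library in Python 3.11.15 (numpy 2.4.6, scipy 1.17.1, scanpy 1.11.5), with exact Poisson intervals for levels and exact conditional intervals for ratios. Calculations were tested on simulated data. The members, gene lists and comparisons were chosen with earlier results of these data known. All 10 members are named in every class. Of each list, the genes with the largest ratio of combination to isotype control may be named (at most 4), and of genes that follow a member, the closest 3. The clusters within classes, the neutrophil markers, the T cell markers in macrophages and neutrophils, and the low-macrophage cells were singled out after values were seen.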

Additional observations from a re-analysis of the deposited data

Results flagged for a closer look

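Tnfaip2 went in opposite directions in 2 classes of the library titled αCTLA-4. Relative to the isotype control its ratio was 1.69 (1.53 to 1.86) in neutrophils and 0.148 (0.0926 to 0.228) in NK cells, from 24 UMIs in 426 NK cells of that library and 176 UMIs in 358 of the isotype control. With 1 library per group the difference between the ratios was not tested. In neutrophils where macrophage markers took under 1% of UMIs Tnfaip2 was at 2228 CPM in the library titled αCTLA-4 and 1693 CPM in the isotype control. It was thus still higher there but below 1.5-fold. The library titled αFcγRII was at 2608 CPM in these neutrophils, above both, so the higher level was not particular to the library titled αCTLA-4. In NK cells where macrophage markers took under 1% of UMIs the counts were 6 and 111 UMIs, or 2.51 and 57.4 CPM. The library titled αFcγRII was also low there, at 7.71 CPM from 11 UMIs. The low value was thus not particular to the library titled αCTLA-4. Over all NK cells the 10 neutrophil markers together stood at 255 CPM in the isotype control and 14.2 CPM in the library titled αCTLA-4. Their part in the ratio was not tested.

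Tnfaip2 was also higher in the combination in the 2233 cells left out of all classes, which carry markers of T cells and of macrophages together. Its level there was 141, 159.7, 141 and 452 CPM in the order isotype control, αCTLA-4-titled, αFcγRII-titled and combination, a ratio of 3.22 (3.11 to 3.32). Nfkbia in the same cells was at 369, 350.0, 367 and 517 CPM, a ratio of 1.40 (1.37 to 1.43).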

How the results depend on the processing

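Counts of the 10 genes past 1.5-fold are given as the value in the report followed by the value under the other setting, and combination is compared with isotype control unless stated. Stricter cell filters and no minimum level moved no count by over 1.5 times, and no gene with a called ratio turned its direction under any setting. A limit of 2-fold lowered most counts: dendritic cells 4 to 1 against each of the 3 other libraries, macrophages 2 to 1, 2 to 1 against the library titled αCTLA-4 and 5 to 1 against that titled αFcγRII, monocytes 2 to 0 and 3 to 0 against αFcγRII, neutrophils 6 to 3 and 1 to 0 against αCTLA-4, αCTLA-4 over isotype control in neutrophils 5 to 1, αFcγRII over isotype control 2 to 0 in neutrophils, 1 to 0 in T cells and 1 to 0 in NK cells, and combination over αFcγRII in NK cells 2 to 1. TMM or median-of-ratios scaling raised macrophages from 2 to 4 and took αFcγRII over isotype control in T cells from 1 to 0, by the shift of the median gene that these scalings remove. Smaller rises with these scalings came from Tnfaip3 in monocytes and dendritic cells and from Rela in neutrophils.

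In NK cells the count was 0 and became 1 with all 3000 features, without integration and at resolution 0.4 or 1.2 (Tnfaip2, higher), without cells of 1% or more macrophage UMIs (Nfkbia, lower) and without shared gel bead barcodes (Rel, lower). There, αFcγRII over isotype control went from 1 to 0 with 10% of cells removed by doublet score, all features, no integration, resolution 0.4 or 1.2 and a minimum of 50 CPM. Combination over αFcγRII in NK cells went from 2 to 1 with cluster makeup held fixed, the mean over cells, 50 CPM, no integration, resolution 0.4 and no shared barcodes. Combination over αCTLA-4 in NK cells went from 1 to 2 with 10% removed, without macrophage UMIs and without shared barcodes, and from 1 to 0 at 50 CPM, and αCTLA-4 over isotype control from 1 to 0 at 50 CPM and from 1 to 2 without integration or at resolution 0.4. In T cells αCTLA-4 over isotype control went from 0 to 1 with 10% removed, a C1q limit of 50%, the mean over cells, no integration, resolution 1.2, no macrophage UMIs and no shared barcodes, and αFcγRII over isotype control from 1 to 0 with all features, the mean over cells, no integration, no macrophage UMIs and no shared barcodes.

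In dendritic cells αFcγRII over isotype control went from 0 to 1 with all features, no integration and cluster makeup held fixed. There, αCTLA-4 over isotype control went from 0 to 1 with the mean over cells and with makeup fixed, and combination over αCTLA-4 from 4 to 2 with makeup fixed. For dendritic cells makeup fixed means the Cd209a-led cluster alone, because the Ccr7-led cluster held under 20 cells in some libraries and was left out. In monocytes the count went from 2 to 4 at resolution 0.4, and that over αCTLA-4 from 0 to 1 at resolution 0.4, with the mean over cells and without shared barcodes. In neutrophils combination over αFcγRII went from 4 to 2 and αCTLA-4 over isotype control from 5 to 3 with the mean over cells, αFcγRII over isotype control from 2 to 1 without integration, and combination over αCTLA-4 from 1 to 2 without shared barcodes. The cause of these moves was not tested.

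No paired analysis was possible because each group had 1 library, and no library could be left out for the same reason. The share of cells with a UMI of Nfkbia or Tnfaip2, after cells were drawn down to 1 depth per class, moved in 43 of 48 classes and libraries when cells were not drawn down, and is not used here. Depth limits neutrophils most, with 48 cells in the library titled αFcγRII, where the interval of Relb over isotype control ran from 0.431 to 1.55. Counting intervals leave out differences between mice and preparations, and the libraries and treatments cannot be told apart.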

Other observations

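Within the larger dendritic cluster, cells with a UMI of Cd209a, a gene of monocyte-related and type 2 dendritic cells, and cells with a UMI of Xcr1 or Clec9a but none of Cd209a, genes of type 1 dendritic cells, were set side by side after values had been seen. In the order isotype control, αCTLA-4-titled, αFcγRII-titled and combination they numbered 66, 39, 24 and 25 for the former and 48, 34, 20 and 30 for the latter. Nfkbia was at 447, 466, 324 and 1164 CPM in the Cd209a group and at 292, 331, 373 and 386 CPM in the Xcr1 or Clec9a group. Nfkb2 was at 293, 361, 283 and 621 CPM in the former and 200.05, 354, 229 and 323 CPM in the latter. The combination was thus well above the other libraries for both genes in Cd209a cells, while in Xcr1 or Clec9a cells the αCTLA-4-titled library was the highest for Nfkb2. Tnfaip2 was highest in the combination in both, at 499 and 454 CPM. These groups hold 20 to 66 cells each, and the difference between them was not tested.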
